A study of Mus musculus with 12 samples.

Results

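Interferon-stimulated genes were followed across 4 treatment groups in the bone marrow of mice with a mutant Shp2. The set held 35 gene symbols, chosen by name as interferon-induced effectors and factors with nucleic acid sensors left out, out of 56350 gene identifiers in the count table. The symbols took 38 identifiers. The 3 extra ones, for Ifi47 and Irgm1, held 0, 8 and 0 counts over all libraries, so each gene is given by the identifier with the most counts. All 35 passed the low-count filter, as did 17475 identifiers in all.

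RNA was sequenced from bone marrow cells of 12 mice of the C57Bl/6J strain, 12 to 14 weeks old, each giving 1 library. Every mouse carried Shp2E76K/+;LysM-Cre+, the controls included. E76K is an activating allele of Ptpn11, the gene of the phosphatase Shp2, and LysM-Cre, which is active in myeloid cells, switches it on, as a model of juvenile myelomonocytic leukaemia. The combination group (n = 3) received both 5-azacitidine and PD-901, the 5-azacitidine group (n = 3) and the PD-901 group (n = 3) each received 1 of them, and the vehicle group (n = 3) received neither. PD-901 (PD0325901), an inhibitor of the kinase MEK, was given by mouth at 5 mg/kg in 20 doses over 4 weeks. The hypomethylating cytidine analogue 5-azacitidine was injected into the peritoneum at 5 mg/kg in 5 doses over the same time. The series asks how the MEK inhibitor acts together with 5-azacitidine. Mice without the Shp2 mutation were not analysed here, so no level is set against healthy marrow.

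Type I interferons bind the receptor IFNAR1/IFNAR2, whose kinases JAK1 and TYK2 phosphorylate STAT2. With IRF9 it is part of the complex ISGF3, which binds the interferon-stimulated response element (ISRE) before many antiviral genes, and IRF7, itself induced in this way, raises interferon production further. Interferon gamma acts mainly at another element, the gamma-activated site (GAS), and strongly induces the immunity-related and guanylate-binding GTPases. In bone marrow many of these genes are transcribed at a basal level without infection, and plasmacytoid dendritic cells, the main source of type I interferon, hold much Irf7 and Bst2 transcript.

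Promoters are shown first, since the ISRE is the sequence by which most of these genes are known. RefSeq's promoter table (GRCm38.p6, 250 bases before to 50 bases after each start) held 27 of the 35 genes. An ISRE-type element was searched as GAAANNGAAA on both strands, and was found in 14 of 27 members (51.9%), against 1079 of 27025 genes in the table (3.99%). A GAS-type element, searched as TTCNNNGAA, was found in 5 of 27 members (18.5%), against 9.55% of all genes. In Bst2 the 2 elements overlapped. The 6 stretches below lie before the start of their gene and show the element in members that fell with the combination (Ifit3b, Ifit3, Oas3, Isg15) and in members that did not pass the test (Gbp3, Rsad2). They read 5′ to 3′ on the strand of the gene, and capitals mark each match of the ISRE-type letters or of their reverse complement.
Ifit3b (chr19:34607754-34607827, plus strand): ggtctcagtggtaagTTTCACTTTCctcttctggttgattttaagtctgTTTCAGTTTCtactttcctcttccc
Ifit3 (chr19:34583358-34583431, plus strand): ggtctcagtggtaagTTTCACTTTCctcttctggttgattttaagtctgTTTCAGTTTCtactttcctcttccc
Oas3 (chr5:120777710-120777749, minus strand): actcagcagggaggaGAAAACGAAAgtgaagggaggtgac
Isg15 (chr4:156200860-156200911, minus strand): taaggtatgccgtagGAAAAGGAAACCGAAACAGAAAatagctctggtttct
Gbp3 (chr3:142559984-142560025, plus strand): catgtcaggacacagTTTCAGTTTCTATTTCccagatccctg
Rsad2 (chr12:26456548-26456587, minus strand): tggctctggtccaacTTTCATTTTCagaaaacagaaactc

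The Ifit3 and Ifit3b stretches were the same over all 74 bases, and each held the element at 2 places. In Isg15 the capitals cover 3 overlapping matches, and in Gbp3 they cover 2. The windows of Irf7, Irf9, Oasl1, Oasl2, Xaf1 and Sp100, all of which fell with the combination, held neither element. The ISRE-type letters were in 8 of 14 members that fell (57.1%) and in 6 of 13 that did not pass the test (46.2%). A match is a string of letters only, and no binding was measured.

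Some properties of the libraries moved with the groups. Total counts ran from 15356919 to 27148190. Mitochondrial transcripts took 1.78, 1.75 and 1.81% of the counts with the combination, 1.73, 1.39 and 1.24% with 5-azacitidine, 1.01, 1.26 and 1.27% with PD-901 and 1.16, 1.29 and 1.19% with vehicle. The combination libraries were thus above all others, and the part of this in the changes below was not tested. Xist, made from the inactive X in female cells, exceeded 100 CPM (counts scaled by library size to a common total) in 0 of 3 combination, 1 of 3 5-azacitidine, 2 of 3 PD-901 and 3 of 3 vehicle libraries. The labels say that mice of both sexes were used and that experiments were matched for sex, and give no sex of the single mouse. Sex by Xist and treatment therefore cannot be told apart between the combination and vehicle groups. Lyz2, the locus that carries the Cre, varied within groups, at 44.9, 55.9 and 1151 CPM with the combination and 172, 147 and 3228 CPM with vehicle. Ptpn11 stood at 120.5 to 163 CPM over the 12 libraries, which shows no loss of the transcript and cannot show the mutation. Marker genes of neutrophils, promyelocytes, erythroid cells and B cells were all present, as the label bone marrow implies.

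Most of the set stood lower with the combination. Of 35 genes, 19 fell and 0 rose against vehicle at an adjusted p under 0.05 (edgeR quasi-likelihood test), where 7.97% of all tested genes fell and 5.78% rose. The median log2 change of the 35 genes was -0.96, with a range of -3.24 to 0.15, and that of all tested genes was 0.01. In 33 of 35 genes the change was negative. In 23 of 35 all 3 combination libraries lay below all 3 vehicle libraries, as they did in 15.9% of all tested genes. Group means were lowest with the combination in 28 of 35 genes and highest with vehicle in 28. They stood in the order combination, 5-azacitidine, PD-901 and vehicle, from low to high, in 23 genes. The shares of all genes for these counts of means were not computed. The number of libraries with Xist above 100 CPM ran in the same order, at 0, 1, 2 and 3, and its part was not tested. In bulk RNA, fewer cells of a type and less RNA per cell cannot be told apart.

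**Figure D1:**
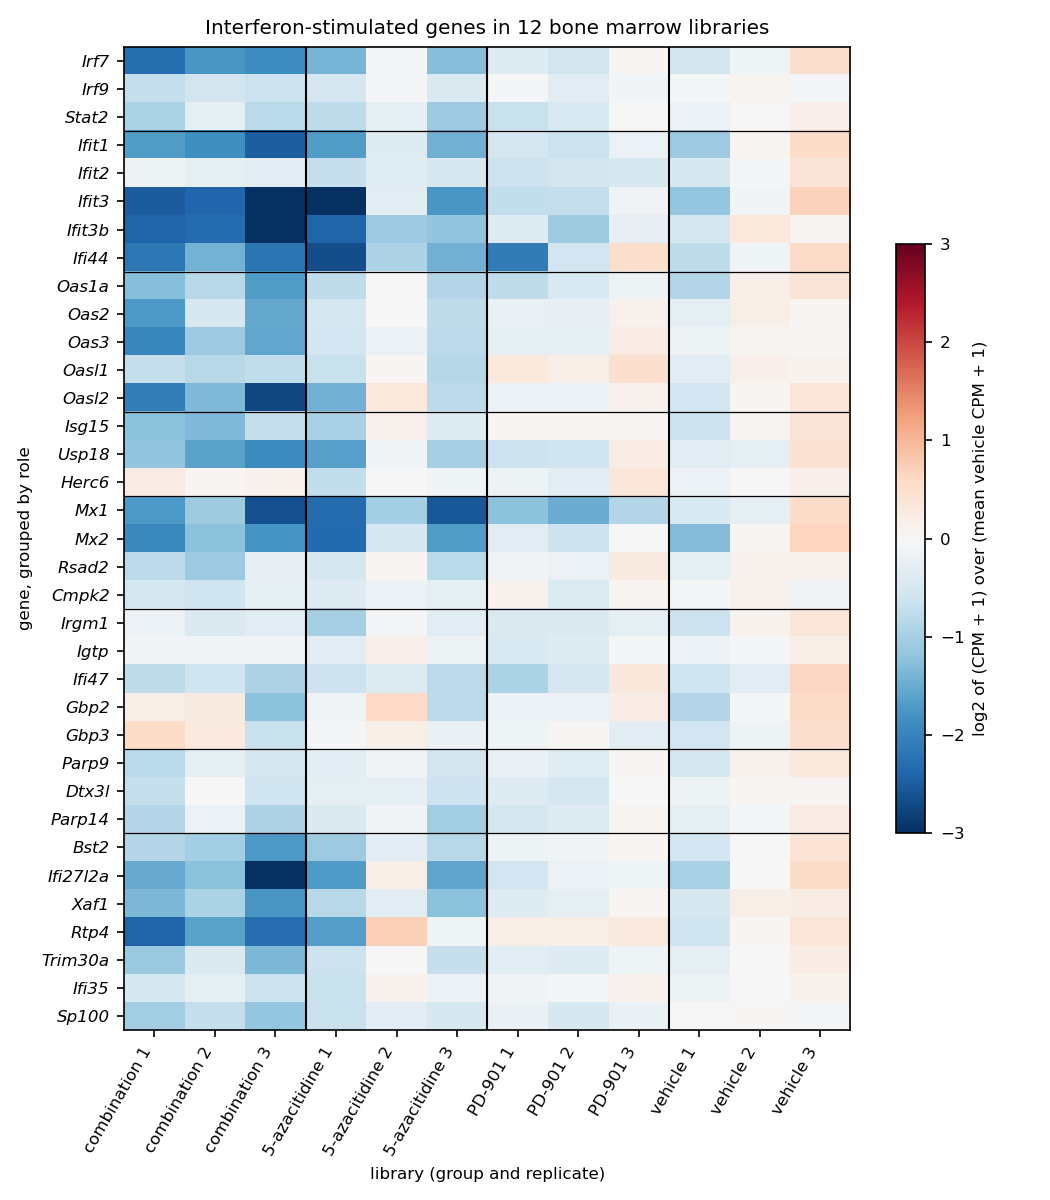
Level of each of the 35 genes (rows, grouped by role) in each of the 12 libraries (columns), as log2 of CPM plus 1 over the vehicle mean plus 1; blue is below and red above the vehicle mean. The 3 combination columns are blue in most rows, with Ifit1, Ifit3, Ifit3b, Oasl2 and Rtp4 among the darkest, while 5-azacitidine 2 is near the vehicle mean.

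The factors of the response come first. Irf7 (mm10 chromosome 7, 141262706 to 141266481), the interferon regulatory factor that amplifies type I interferon, stood at 25.5, 36.8 and 33.8 CPM with the combination, 47.1, 121 and 51.7 CPM with 5-azacitidine, 96.9, 85.9 and 133 CPM with PD-901 and 86.6, 115 and 178 CPM with vehicle. All 3 combination libraries lay below every other library of the study. The fall against vehicle was 3.95-fold (log2 change -1.98 ± 0.35 SE, adjusted p = 0.00454). Irf9 (chromosome 14, 55603571 to 55610030), the DNA-binding part of ISGF3, stood at 80.2, 90.5 and 84.02 CPM with the combination, 93.04, 127 and 97.8 CPM with 5-azacitidine, 128, 105 and 126 CPM with PD-901 and 129, 140.3 and 128 CPM with vehicle. Its fall was smaller but its spread was small too (log2 change -0.64 ± 0.14 SE, adjusted p = 0.00863), and the combination libraries again lay below all others. Stat2 (chromosome 10, 128270559 to 128292849), the partner of IRF9 in ISGF3, stood at 49.2, 79.03 and 54.4 CPM with the combination, 56.2, 79.7 and 44.3 CPM with 5-azacitidine, 60.2, 70.03 and 97.1 CPM with PD-901 and 85.2, 95.1 and 107 CPM with vehicle. The combination libraries were all below the vehicle libraries, but the change did not pass the test (log2 change -0.65 ± 0.23 SE, adjusted p = 0.0723), and 5-azacitidine 3 held the lowest value of all.

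The IFIT genes, whose proteins bind foreign RNA and block its translation, showed the deepest falls and also 1 gene that did not move with the rest. Ifit3b (chromosome 19, 34607970 to 34613401) stood at 1.63, 1.78 and 0.710 CPM with the combination, 1.65, 5.58 and 5.14 CPM with 5-azacitidine, 9.64, 5.61 and 10.8 CPM with PD-901 and 8.74, 16.4 and 13.5 CPM with vehicle. Its fall against vehicle was the deepest of the 35 genes, at 9.46-fold (log2 change -3.24 ± 0.48 SE, adjusted p = 0.00291), and the combination and vehicle libraries did not overlap. Ifit1 (chromosome 19, 34640871 to 34650009) stood at 5.34, 4.69 and 2.64 CPM with the combination, 5.41, 14.5 and 6.53 CPM with 5-azacitidine, 13.5, 12.1 and 16.9 CPM with PD-901 and 8.58, 20.5 and 29.1 CPM with vehicle. The combination libraries lay below every vehicle library, though vehicle 1 was low within its group, and Ifit1 fell 4.61-fold (log2 change -2.20 ± 0.45 SE, adjusted p = 0.00720). Ifit3, a near copy of Ifit3b with the same promoter stretch, also fell (log2 change -2.99 ± 0.69 SE, adjusted p = 0.0149), and reads shared by the pair could have been counted for either or for none. Ifi44, an induced protein of the cytoplasm, had a like fitted change of -2.88 ± 1.06 (SE) but did not pass (adjusted p = 0.0901), and no library held it above 8.48 CPM. Ifit2 (29.9, 27.7 and 26.4 CPM with the combination and 23.9, 32.3 and 44.2 CPM with vehicle) did not pass either, at a log2 change of -0.26 ± 0.19, and its libraries overlapped.

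All 5 members from the oligoadenylate synthetase family fell. The active enzymes of this family, which are not all of its members, make oligoadenylates that activate RNase L, which cleaves RNA in infected cells. Oas3 (chromosome 5, 120753098 to 120777661) stood at 52.4, 96.1 and 69.2 CPM with the combination, 139, 183 and 119 CPM with 5-azacitidine, 172, 172 and 244 CPM with PD-901 and 187, 219.7 and 213 CPM with vehicle. Its 3 combination libraries lay below all 9 others, and the fall of 2.85-fold against vehicle had a small error (log2 change -1.51 ± 0.22 SE, adjusted p = 0.00291). Oasl2 (chromosome 5, 114896936 to 114912234) stood at 26.1, 44.3 and 16.2 CPM with the combination, 40.95, 139 and 65.2 CPM with 5-azacitidine, 98.9, 99.9 and 123 CPM with PD-901 and 75.2, 117 and 145 CPM with vehicle. Combination 2 lay just above 5-azacitidine 1, but all combination libraries were below vehicle, and the gene fell 3.90-fold (log2 change -1.96 ± 0.44 SE, adjusted p = 0.0132). Oas1a, Oas2 and Oasl1, the last known in mice to hold back translation of Irf7 mRNA, also fell, with log2 changes of -1.25, -1.16 and -0.80. For Oas1a, 1 combination library (35.1 CPM) lay above 1 vehicle library (34.1 CPM), and the gene has close copies beside it. Of these copies Oas1b, Oas1c and Oas1g, which are not in the set of 35, did not pass, at log2 changes of -0.51, -0.45 and -0.94.

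Isg15 and Usp18 fell, and Herc6 did not. Isg15 (chromosome 4, 156199455 to 156200796), a ubiquitin-like protein that is joined to other proteins, stood at 7.17, 6.68 and 10.8 CPM with the combination, 8.84, 20.2 and 13.8 CPM with 5-azacitidine, 18.7, 19.3 and 19.4 CPM with PD-901 and 11.3, 19.5 and 24.04 CPM with vehicle. Combination 3 came close to vehicle 1, but the groups did not overlap (log2 change -1.15 ± 0.31 SE, adjusted p = 0.0244). Usp18 (chromosome 6, 121245906 to 121270917), which removes ISG15 and damps signalling at IFNAR2, stood at 10.02, 7.29 and 5.64 CPM with the combination, 7.12, 22.8 and 11.6 CPM with 5-azacitidine, 15.3, 15.5 and 28.2 CPM with PD-901 and 18.9, 19.9 and 33.5 CPM with vehicle. All combination libraries lay below all vehicle libraries (log2 change -1.66 ± 0.40 SE, adjusted p = 0.0144), while 5-azacitidine 1 was as low as they were. Herc6, the main ligase for ISG15 in mice, stood at 19.7, 17.1 and 18.2 CPM with the combination and 14.5, 16.7 and 18.4 CPM with vehicle, and the log2 change of 0.15 ± 0.23 (SE, adjusted p = 0.759) was the highest of the set.

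Of the genes of the Mx, viperin and Cmpk2 group, 2 of 4 fell. Mx1 (chromosome 16, 97447035 to 97462907), a dynamin-like GTPase against influenza virus whose C57BL/6 allele is known to lack part of its coding exons, stood at 11.7, 19.1 and 5.76 CPM with the combination, 7.45, 19.6 and 6.25 CPM with 5-azacitidine, 17.02, 14.03 and 21.8 CPM with PD-901 and 29.4, 33.03 and 60.4 CPM with vehicle. Every treated library, with either drug or both, was below every vehicle library, and the fall with the combination was 3.38-fold (log2 change -1.76 ± 0.47 SE, adjusted p = 0.0260). Mx2 (chromosome 16, 97535308 to 97560900), its neighbour, stood at 1.17, 2.55 and 1.42 CPM with the combination, 0.659, 4.83 and 1.62 CPM with 5-azacitidine, 5.67, 4.39 and 7.21 CPM with PD-901 and 2.36, 7.54 and 12.1 CPM with vehicle. Combination 2 overlapped with vehicle 1, and the gene passed narrowly (log2 change -2.10 ± 0.64 SE, adjusted p = 0.0425). Rsad2, which encodes the antiviral enzyme viperin, and the adjacent Cmpk2, a mitochondrial nucleotide kinase, did not pass, at -0.68 ± 0.24 and -0.46 ± 0.15 (SE; adjusted p = 0.0759 and 0.0523).

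None of the 5 immunity-related and guanylate-binding GTPases passed the test. These proteins act on the vacuoles of intracellular pathogens. Gbp2 (chromosome 3, 142620602 to 142638008) stood at 22.3, 23.5 and 7.61 CPM with the combination, 17.7, 29.5 and 10.8 CPM with 5-azacitidine, 16.8, 16.9 and 22.5 CPM with PD-901 and 10.1, 18.5 and 29.3 CPM with vehicle. The libraries of all groups overlapped (log2 change -0.12 ± 0.45 SE, adjusted p = 0.910). Gbp3 (chromosome 3, 142560026 to 142573209) stood at 42.3, 35.03 and 17.6 CPM with the combination, 27.6, 32.1 and 24.8 CPM with 5-azacitidine, 25.8, 29.3 and 22.1 CPM with PD-901 and 18.9, 25.4 and 41.1 CPM with vehicle. Its highest and its lowest value over all 12 libraries were both in the combination group (log2 change 0.15 ± 0.30 SE, adjusted p = 0.824). Igtp (chromosome 11, 58199556 to 58207591) stood at 44.5, 44.3 and 44.3 CPM with the combination, 37.2, 52.8 and 42.3 CPM with 5-azacitidine, 34.05, 35.9 and 46.1 CPM with PD-901 and 41.6, 45.4 and 54.8 CPM with vehicle. The 3 combination libraries were nearly equal and lay inside the vehicle range (log2 change -0.09 ± 0.16 SE, adjusted p = 0.797). Ifi47 (chromosome 11, 49076587 to 49096974) stood at 3.05, 3.57 and 2.60 CPM with the combination, 3.36, 4.20 and 2.96 CPM with 5-azacitidine, 2.54, 3.84 and 7.64 CPM with PD-901 and 3.57, 4.54 and 9.49 CPM with vehicle, a low level (log2 change -0.94 ± 0.44 SE, adjusted p = 0.180), and the highest combination and the lowest vehicle library both rounded to 3.57 CPM. Irgm1 (chromosome 11, 48861968 to 48871683) stood at 27.6, 23.1 and 24.9 CPM with the combination, 15.3, 30.6 and 24.8 CPM with 5-azacitidine, 23.01, 22.8 and 25.7 CPM with PD-901 and 19.6, 33.9 and 40.4 CPM with vehicle, with overlap of all groups (log2 change -0.31 ± 0.25 SE, adjusted p = 0.485).

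Parp9, Dtx3l and Parp14 did not pass either. Parp9 and the ubiquitin ligase Dtx3l form a complex, and Parp14 attaches single ADP-ribose units to proteins. Parp9 (chromosome 16, 35938470 to 35972605) stood at 29.00, 41.4 and 36.1 CPM with the combination, 41.2, 48.4 and 34.9 CPM with 5-azacitidine, 44.6, 39.6 and 52.4 CPM with PD-901 and 35.2, 55.1 and 63.8 CPM with vehicle. Combination 2 and combination 3 overlapped with vehicle 1 (log2 change -0.53 ± 0.21 SE, adjusted p = 0.105). Parp14 (chromosome 16, 35832874 to 35871544) stood at 50.5, 83.6 and 49.2 CPM with the combination, 68.98, 88.2 and 44.8 CPM with 5-azacitidine, 65.4, 71.5 and 99.2 CPM with PD-901 and 77.5, 92.2 and 112 CPM with vehicle. Combination 2 lay inside the vehicle range and the other 2 below it (log2 change -0.62 ± 0.26 SE, adjusted p = 0.131). Dtx3l had a change of -0.41 ± 0.19 (SE, adjusted p = 0.171). Parp9 and Dtx3l share 458 bases of exon on opposite strands, and the sources used here do not say whether counting went by strand.

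Among the 7 other induced genes, 5 fell and all 7 had combination libraries wholly below vehicle. Sp100 (chromosome 1, 85649988 to 85709998), a protein of PML nuclear bodies, stood at 184, 230.2 and 169 CPM with the combination, 237, 299 and 268 CPM with 5-azacitidine, 326, 269 and 327 CPM with PD-901 and 379, 386 and 365 CPM with vehicle. Vehicle libraries were close together and above all 9 treated libraries, and combination libraries were below all others (log2 change -0.96 ± 0.14 SE, adjusted p = 0.00291). Xaf1 (chromosome 11, 72301629 to 72313733), an antagonist of the caspase inhibitor XIAP, stood at 10.5, 14.1 and 7.77 CPM with the combination, 15.4, 22.3 and 11.4 CPM with 5-azacitidine, 21.5, 23.00 and 29.6 CPM with PD-901 and 19.9, 31.8 and 33.02 CPM with vehicle. All 3 combination libraries lay below vehicle, and combination 2 overlapped with the 5-azacitidine group (log2 change -1.39 ± 0.28 SE, adjusted p = 0.00651). Rtp4, a chaperone of membrane receptors with antiviral activity, fell 4.52-fold (log2 change -2.17 ± 0.48 SE, adjusted p = 0.0118), to 6.82, 12.5 and 7.46 CPM with the combination, against 26.3, 42.2 and 52.4 CPM with vehicle. Bst2 (tetherin, which holds budding virus at the cell surface) and the ubiquitin ligase Trim30a fell too, with log2 changes of -1.18 and -0.92. Ifi27l2a, a small membrane protein, and Ifi35, a partner of Nmi, did not pass, at -1.88 ± 0.63 and -0.48 ± 0.19 (SE).

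**Figure D2:**
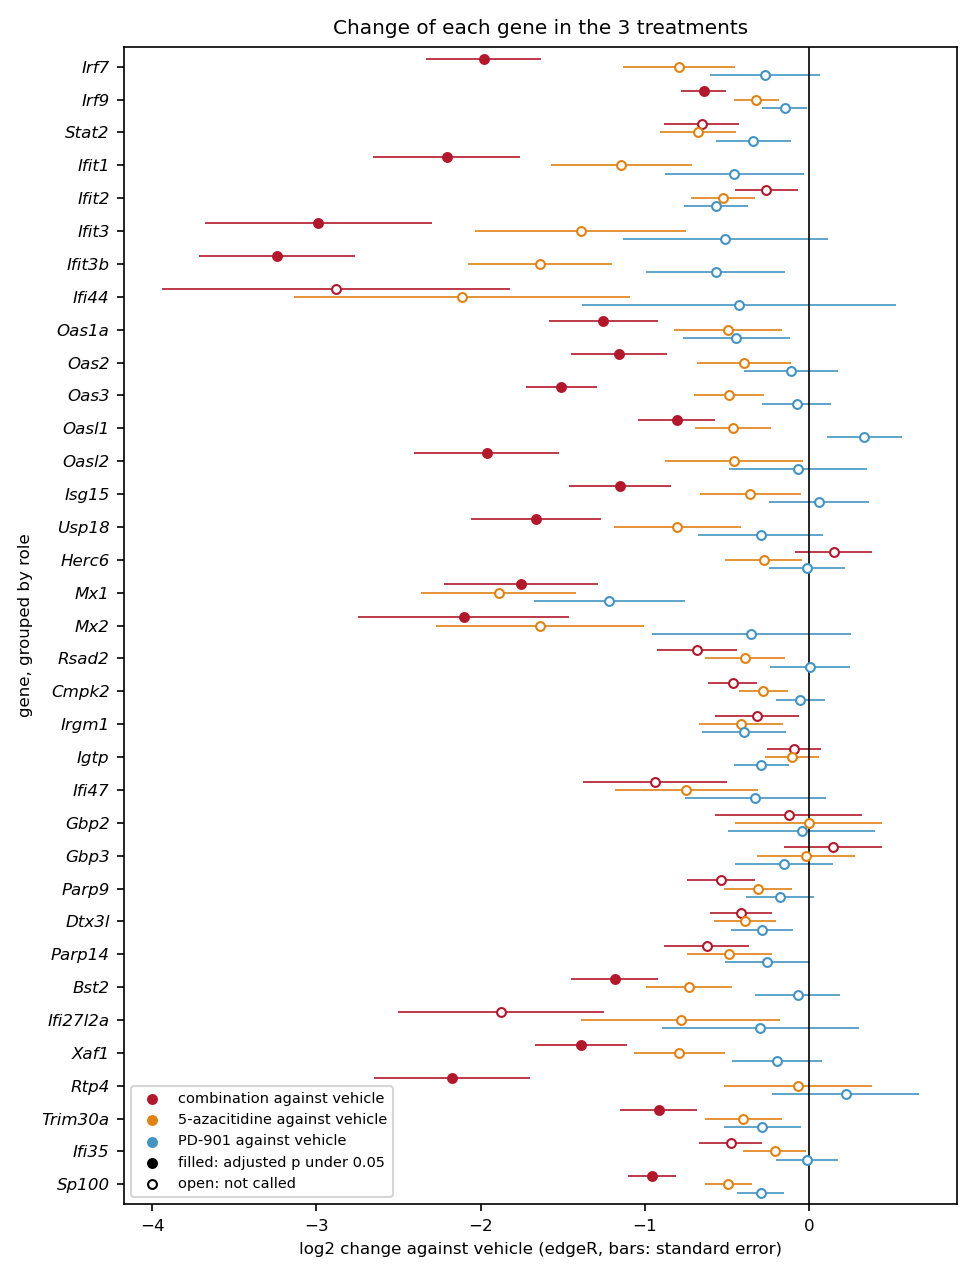
Log2 change of each of the 35 genes against vehicle (x axis, edgeR, bars show the standard error), with the combination, 5-azacitidine and PD-901 drawn one above the other in each row; filled points passed an adjusted p under 0.05. Filled points occur with the combination only, for 19 genes, and most points of the single agents also lie left of 0.

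Which genes fell depended less on 1 library for some than for others. Of the 19, 8 passed in each of 12 fits that left out 1 library, and these were Irf7, Irf9, Ifit1, Ifit3b, Oas3, Bst2, Xaf1 and Sp100. The count of 19 dropped to 9 without combination 1 and to 10 without combination 3. Calls among all genes moved as well, from 803 to 2730 over these 12 fits, against 1393 lower and 1010 higher with all libraries. With Xist class (above 100 CPM or not) as a covariate, 0 of 35 genes and 0 of all genes passed, with a median log2 change of -0.52 and 30 of 35 negative. With Lyz2 as a covariate 12 genes passed. The 4 libraries lowest in Lyz2 were combination 1, combination 2, vehicle 1 and vehicle 2. A fit without them keeps only combination 3 and vehicle 3 of these groups, so no count is given for it.

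Levels per length show how the order within the set differed between groups. FPKM here is CPM per kilobase of exon. Bst2 had the highest level in every group, at 41.1 ± 11.99 FPKM with the combination and 93.04 ± 30.9 FPKM with vehicle (mean ± SD, n = 3 each). Sp100 followed with the combination, at 25.7 ± 4.25 FPKM, against 49.9 ± 1.45 FPKM with vehicle, where Ifi27l2a (67.1 ± 33.4 FPKM) stood between them. The SD intervals of these neighbours overlapped in both groups. Irf7 ranked 16 of 35 with the combination (8.49 ± 1.55 FPKM) and 5 with vehicle (33.5 ± 12.4 FPKM). Igtp, whose means differed by less than the vehicle SD (21.9 ± 0.0708 FPKM with the combination and 23.4 ± 3.35 FPKM with vehicle), ranked 3 with the combination and 11 with vehicle, while Ifit3 ranked 30 with the combination and 17 with vehicle. Ifi44 was lowest in all 4 groups. Exons of other annotated genes overlap 14 of the 35 genes, over at most 16.8% of a gene's exon bases.

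**Figure D3:**
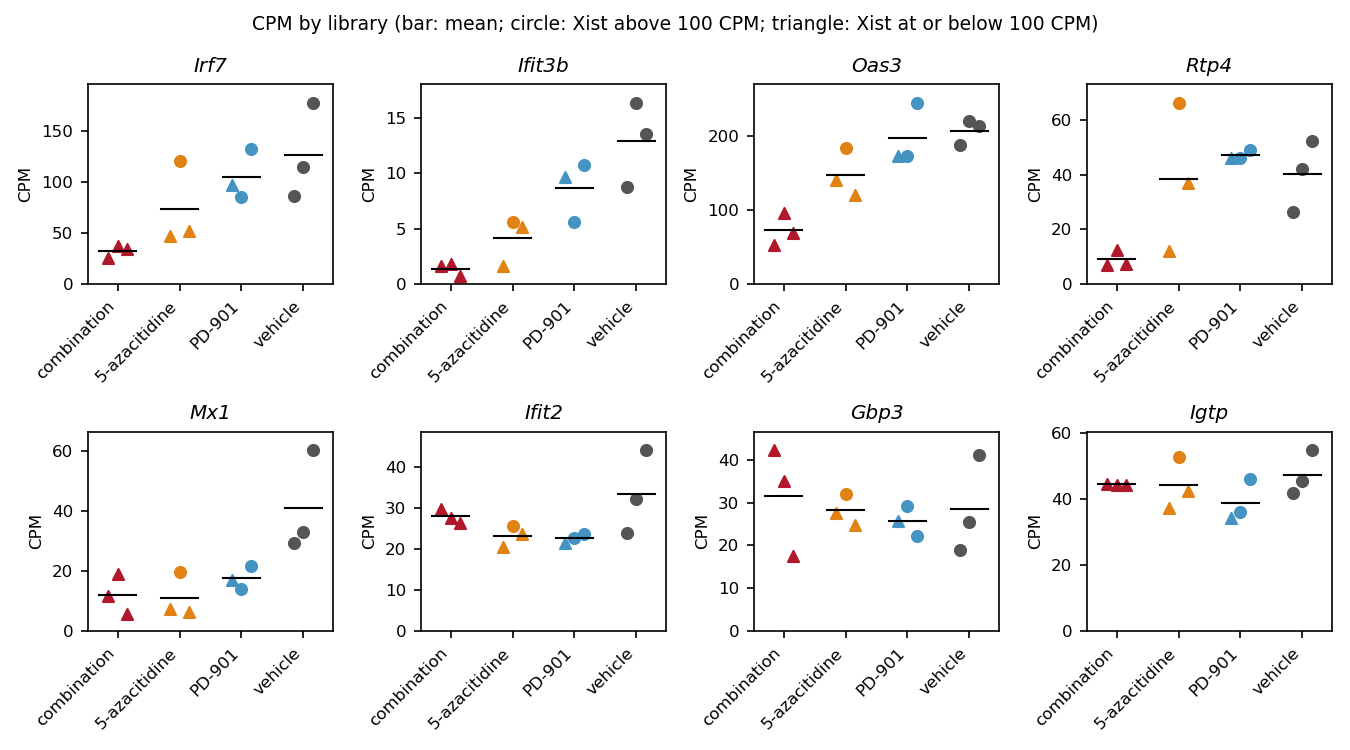
CPM (y axis, linear, from 0) of 8 genes in each library by group, with the bar at the group mean (n = 3); circles mark libraries with Xist above 100 CPM and triangles the others. Irf7, Ifit3b, Oas3 and Rtp4 show combination libraries below vehicle with no overlap, Mx1 shows all treated groups below vehicle, and Ifit2, Gbp3 and Igtp show overlap.

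Cell type markers changed with the combination too, some lists downward, some upward and some hardly. Of 9 markers of plasmacytoid dendritic cells, 8 fell with the combination, with a median log2 change of -2.01. Their summed level was 86.3 to 186 CPM in the combination, 128 to 189 CPM in the 5-azacitidine, 288 to 445 CPM in the PD-901 and 340.5 to 429 CPM in the vehicle libraries, and none of the 9 was at 0 in any library. Of the monocyte markers 5 of 9 fell, with a summed level of 1702 to 3170 CPM with the combination, 2104 to 2888 CPM with 5-azacitidine, 2285 to 2805 CPM with PD-901 and 3540.4 to 4376 CPM with vehicle. The sums of all 3 treated groups were below vehicle. The same test lowered 4 of 6 conventional dendritic cell, 4 of 9 macrophage, 6 of 9 mature neutrophil and 8 of 9 B cell markers. It lowered 1 of 9 T and NK cell markers and 0 of 4 tested megakaryocyte markers. It raised 5 of 5 promyelocyte and 10 of 10 erythroid markers. The part of these shifts in the fall of the interferon-stimulated genes was not tested.

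**Figure D4:**
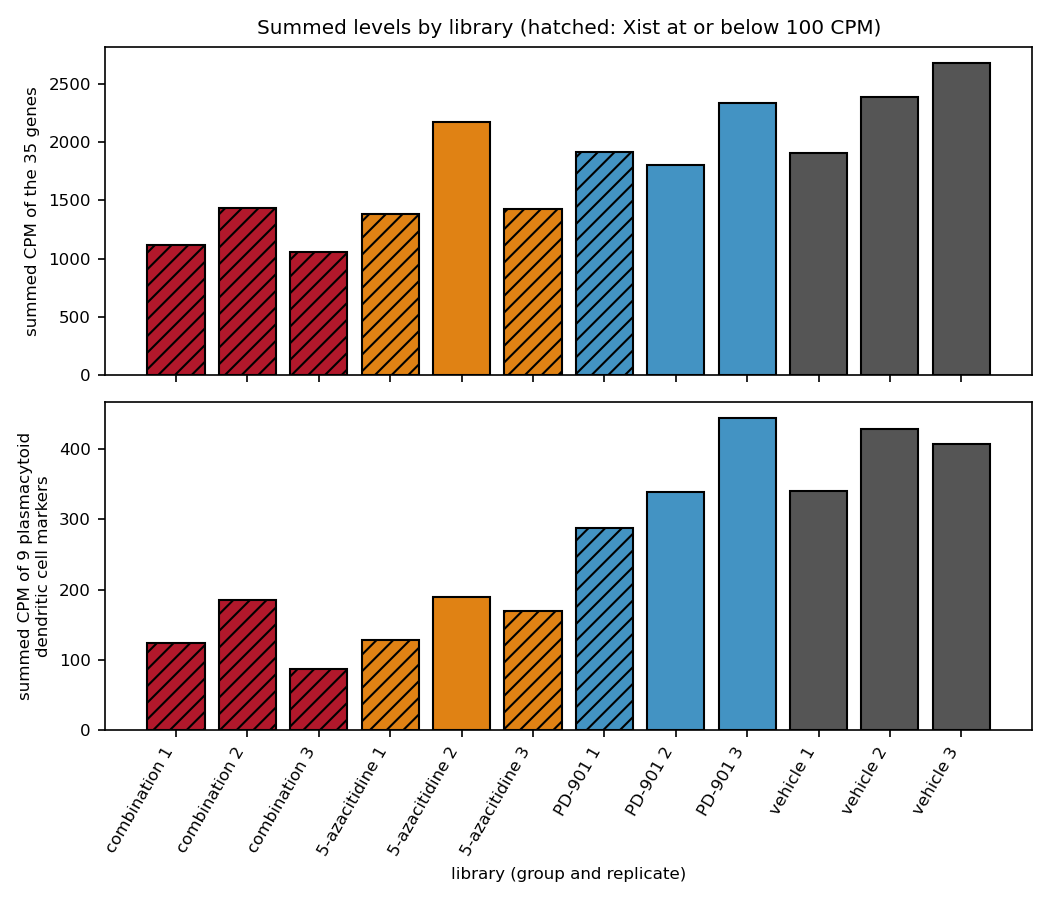
Summed CPM of the 35 genes (upper bars) and of 9 plasmacytoid dendritic cell markers (lower bars) in each of the 12 libraries, with both y axes from 0; hatched bars are libraries with Xist at or below 100 CPM. The sum of the 35 genes is 1058 to 1436 CPM with the combination and 1909 to 2682 CPM with vehicle. 5-azacitidine 2 is the highest of its group in both panels. It stands at 2174 against 1387 and 1429 CPM in the upper panel and at 189 against 128 and 169 CPM in the lower.

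With 5-azacitidine alone no member passed. This comparison and those of PD-901 and the combination share the 3 vehicle libraries. All 35 changes were negative, with a median log2 change of -0.48 against -0.01 over all tested genes. At an unadjusted p under 0.05 there were 12 of 35 members, where 15.3% of all genes had one, and at the adjusted threshold 0.00572% of all genes passed. DESeq2 called 3 members and limma-voom 0. The share of 0.00572% is that of edgeR, and the share of all genes called by DESeq2 is not given here. In 9 members the libraries lay wholly below vehicle, as in 9.77% of all genes. Mx1 had the lowest p, with a log2 change of -1.89 ± 0.47 (SE, adjusted p = 0.131), followed by Ifit3b at -1.64 ± 0.44 and Sp100 at -0.49 ± 0.14. Irf7 stood at -0.79 ± 0.34 and Rtp4 at -0.07 ± 0.45.

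The 5-azacitidine libraries were not alike. 5-azacitidine 2, the one with Xist above 100 CPM, was the highest of its group in 34 of 35 genes, with a median log2 distance of -0.08 to the vehicle mean, against -0.73 and -0.79 in 5-azacitidine 1 and 3. Irf7 was at 121 CPM in 5-azacitidine 2 and at 47.1 and 51.7 CPM in the other two, and Rtp4 was at 66.4 CPM against 12.2 and 36.9 CPM. The marker sum of plasmacytoid dendritic cells, 128 to 189 CPM over the 3 libraries, was in each below the 9-marker sum of every vehicle library. 5-azacitidine 2 was the highest of its group in this sum and in those of conventional dendritic cells, monocytes, macrophages (888 against 403 and 459 CPM) and B cells. It was the lowest for mature neutrophils (16147 against 18462 and 21938 CPM), promyelocytes and megakaryocytes, and between for erythroid, T and NK cells. Their part was not tested. Without 5-azacitidine 2, 2 members passed, and without any other single library 0 did. Among all genes, 0 to 106 passed over the fits without 1 library.

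With PD-901 alone no member passed either. The background was 0% of all genes at the adjusted threshold. At an unadjusted p under 0.05 there were 2 members, Ifit2 (-0.56 ± 0.19, SE) and Mx1 (-1.22 ± 0.46), where 4.88% of all genes had one, and DESeq2 and limma-voom called 0 each. The median log2 change was -0.27, against 0.01 over all genes, with 31 of 35 negative. In 4 members, Ifit2, Mx1, Sp100 and Irf9, the libraries lay wholly below vehicle, as in 5.93% of all genes. Oasl1 lay wholly above, at 28.1, 25.4 and 31.8 CPM with PD-901 and 17.8, 25.3 and 24.5 CPM with vehicle (log2 change 0.34 ± 0.23 SE, adjusted p = 0.960).

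The comparison of the combination with each single agent asks what the second drug added. Against PD-901, 14 members fell and 0 rose, where 5.12% of all genes fell and 1.69% rose. The median log2 change was -0.69 with 30 of 35 negative. Oas3 (log2 change -1.43 ± 0.22 SE, adjusted p = 0.00275), Ifit3b (-2.67), Oasl1 (-1.14), Irf7 (-1.71) and Rtp4 (-2.40) had the lowest p. Ifit2 was the gene that lay wholly above PD-901, at 29.9, 27.7 and 26.4 CPM with the combination and 21.5, 22.7 and 23.7 CPM with PD-901, without passing the test (log2 change 0.31 ± 0.19 SE, adjusted p = 0.407). The count dropped to 4 without combination 1 or without combination 3, to 5 without PD-901 1 or PD-901 3, and to 9 without PD-901 2. Among all genes, 386 to 1563 passed over the fits without 1 library. The count of members was 3 with the Xist covariate and 1 with Lyz2 as a covariate. In the same comparison 7 of 9 plasmacytoid dendritic cell, 9 of 9 B cell, 6 of 9 mature neutrophil, 2 of 6 conventional dendritic cell, 1 of 9 monocyte and 1 of 9 macrophage markers fell and 1 of 5 promyelocyte markers rose, and their part in the result was not tested.

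Against 5-azacitidine 1 member fell and 0 rose, where 1.07% of all genes fell and 0.252% rose. That member was Oas3, at 52.4, 96.1 and 69.2 CPM with the combination and 139, 183 and 119 CPM with 5-azacitidine (log2 change -1.02 ± 0.21 SE, adjusted p = 0.0357). Rtp4 had the larger change but missed the threshold (log2 change -2.11 ± 0.48 SE, adjusted p = 0.0522), and 1 combination library (12.5 CPM) lay just above 5-azacitidine 1 (12.2 CPM). The median log2 change was -0.45 with 28 of 35 negative. Irf7, at -1.19 ± 0.34 (SE, adjusted p = 0.105), was lower in all 3 combination libraries. Of the markers 1 of 6 conventional dendritic cell and 1 of 9 mature neutrophil genes fell here and 0 of 9 plasmacytoid dendritic cell genes did, and their part was not tested. The Oas3 call was lost in the fit of only these 2 groups, with the Xist covariate and with the Lyz2 covariate. Leaving out the 4 libraries lowest in Lyz2, which keeps only combination 3 of its group, lost the Oas3 call too. It was also lost without vehicle 2, PD-901 2, 5-azacitidine 2, 5-azacitidine 3, combination 1 or combination 3, while 4 members passed without 5-azacitidine 1 or combination 2. Among all genes, 0 to 735 passed over the fits without 1 library.

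The interaction asks whether the change with both drugs departs from the sum of the changes with each, on the log2 scale. No member passed, nor did any gene (0%). At an unadjusted p under 0.05 there were 4 members, where 10.7% of all genes had one, and DESeq2 and limma-voom called 0 each, while 1 member passed without 5-azacitidine 1. The 4 were Rtp4 at -2.33 ± 0.65 (SE), Oas3 at -0.95 ± 0.30 and Oasl2 at -1.44 ± 0.60, below the sum, and Ifit2 at 0.83 ± 0.28, above it. The test of any difference among the 4 groups called 11 of 35 members, where 6.96% of all genes passed. These were Oas3, Ifit3b, Sp100, Irf7, Xaf1, Oasl1, Ifit1, Bst2, Rtp4, Irf9 and Mx1. The count was 0 without combination 1, 2 without combination 3, 5 without vehicle 2, PD-901 1 or PD-901 3, 6 without 5-azacitidine 3 and 19 without 5-azacitidine 2. Over the fits without 1 library, 0 to 150 of all genes passed for the interaction and 4 to 1674 for any difference.

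Most of the 35 genes were high or low in the same libraries within a group. Vehicle 3 was the highest of its group in 28 of 35 genes and vehicle 1 the lowest in 32. From vehicle 1 to vehicle 3, marker sums rose for macrophages (396, 498 and 1056 CPM), conventional dendritic cells, monocytes, promyelocytes, and T and NK cells. They fell for mature neutrophils (25913, 18933 and 12208 CPM) and had neither order for plasmacytoid dendritic, B, erythroid and megakaryocyte lists. The part of this in the order of the genes was not tested. PD-901 3 was the highest of its group in 32. Combination 2 was the highest of its group in 23, and combination 3 was the lowest of its group in 19 and the lowest of all 12 libraries in 13. The 35 genes are thus not independent measurements of a group.

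Within libraries of the same Xist class the comparisons have few mice. Where Xist was at or below 100 CPM, combination means (3 libraries) were below 5-azacitidine means (2 libraries) in 22 of 35 genes, with a median log2 difference of -0.14. They were below the single PD-901 library of that class in 28, with a median of -0.60, and in 23 genes every combination library was below it. In 5 genes every combination library was below both 5-azacitidine libraries of that class, and in 5 below all 3 single-agent libraries. The shares of all genes that did so were not computed. Where Xist was above 100 CPM, the 5-azacitidine library was below the vehicle mean (3 libraries) in 21 genes, with a median of -0.04. The 2 PD-901 libraries of that class had a mean below vehicle in 24 genes, with a median of -0.13. No class holds both combination and vehicle libraries, so that comparison has no value within a class.

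The rest of the pathway was read from lists of its ligands, of its receptors and signalling genes, and of other induced genes. Interferon transcripts themselves were scarce. Of 21 ligand genes 14, with Ifnb1 among them, had 0 counts in all 12 libraries, which allows up to 0.109 to 0.198 CPM by library (3 counts). Ifng, the gene of interferon gamma, passed the filter, with log2 change -0.39 ± 0.87 SE, adjusted p = 0.847 for the combination against vehicle. Ifna13 had 64 counts in all, 43 of them in PD-901 3. The counting floor covers counting error only.

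Of 22 receptors, kinases, other factors and inhibitors, 10 fell and 0 rose with the combination against vehicle, where 7.97% of all tested genes fell and 5.78% rose, with a median log2 change of -0.53. The lowest p were those of Ptpn6, the phosphatase SHP-1 that damps JAK signalling (log2 change -0.92 ± 0.15 SE, adjusted p = 0.00322), of the factor Irf2 (-0.79), of Irf8 (-1.14), which directs monocyte and dendritic cell development, and of the interferon gamma receptor chain Ifngr2 (-0.84). The type I receptor chain Ifnar1 fell as well (log2 change -0.68 ± 0.17 SE, adjusted p = 0.0184). Its partner Ifnar2 did not pass (-0.37 ± 0.12, SE, adjusted p = 0.0527), nor did the factor Irf1 (-0.73 ± 0.24, adjusted p = 0.0601). The kinases Jak1 and Tyk2 had changes of -0.37 ± 0.14 and -0.30 ± 0.18, and the chain Ifngr1 one of -0.25 ± 0.15, without passing.

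Of 54 other induced genes that were tested, 12 fell and 0 rose, against the same 7.97% and 5.78% of all tested genes, with a median log2 change of -0.42. They were led by the tudor protein Tdrd7 (log2 change -1.01 ± 0.17 SE, adjusted p = 0.00364), the membrane restriction factor Ifitm3 (-0.98), the helicase Ddx60 (-1.38) and Phf11b (-2.03). With Xist class as a covariate 0 genes of these 3 lists passed, against 22 with all libraries. There were 8 without combination 1, 11 without combination 3, 12 without vehicle 1 and 14 without vehicle 2. Over the fits without 1 library, 803 to 2730 of all genes passed.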

How the data were processed

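Libraries were made with a low-input kit from RNA of integrity above 7 and sequenced as read pairs, per the labels. The authors deposited raw counts per gene, 1 column per mouse, and not normalized. Build mm10, STAR 2.7.2a, Subread 1.6.5 with featureCounts, and bcl2fastq are named in the submitters' processing notes. The sources used here state neither the strand setting nor the annotation release.

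The counts were fitted with edgeR 4.0.16 in R 4.3.3 (quasi-likelihood F test, robust, two-sided), with TMM scaling (factors 0.929 to 1.07), filterByExpr (minimum count 10, minimum total 15), 1 mean per group and 8 residual degrees of freedom, on all 12 libraries. Benjamini-Hochberg adjustment ran over all 17475 tested genes, and 0.05 was the threshold. DESeq2 1.42.0, limma-voom 3.58.1, other scalings, filters, covariates and fits without 1 library were alternatives. Positions are those given with the deposited counts, in mm10. The test was also run on simulated counts. Their genes were drawn independently and held no Xist classes, so that run cannot speak to shared shifts or to sex. Pairs of libraries of 1 group gave a chi-square per degree of freedom of 19.9 to 71.2, more than sampling noise gives, and none was treated as a duplicate. Replicate numbers follow accession order and pair nothing. The spread beyond counting, as 1 value over the tested genes, was a biological coefficient of variation of 0.328. Each mouse gave 1 library, so this value holds differences between mice and between library preparations together.

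The members, lists and motifs were chosen with earlier results of these data known. Values in every library are given for Irf7, Irf9 and Stat2, for the 2 members of each role group with the lowest p in the combination against vehicle, for members called against 5-azacitidine, and for the 3 members with the highest p. In each pathway list the 4 lowest p are named, with 9 receptors, kinases and factors whatever their values, 1 of which is not reported here. Promoters are those of the member with the lowest p in each role group among the members in the promoter table, where the window held a match. Other values and the stretches of Ifit3, Gbp3 and Rsad2 were chosen after they were seen.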

Additional observations from a re-analysis of the deposited data

How the results depend on the processing

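Counts of members that passed are given here by setting. Except for the fits without 1 library, calls among all genes are not given beside them, so these counts cannot be set against a background. With DESeq2 size factors in edgeR, 2 members passed for the combination against 5-azacitidine, and with the stricter filter 2 did. Without a filter 7 members passed for 5-azacitidine against vehicle, 6 for the combination against 5-azacitidine, 1 for the interaction and 17 for any difference. DESeq2 gave 3, 5 and 19 for 5-azacitidine against vehicle, the combination against 5-azacitidine and any difference. The fit of only the groups compared gave 0 for the combination against 5-azacitidine. The Xist covariate gave 0 for the combination against vehicle, 3 against PD-901, 0 against 5-azacitidine, 0 for any difference and 0 other pathway genes. Without the 4 libraries lowest in Lyz2 (chosen after seeing the data) these were 9, 8, 0, 7 and 11. The Lyz2 covariate (also chosen afterwards) gave 12 against vehicle, 1 against PD-901, 0 against 5-azacitidine and 4 for any difference. The cause of these moves was not tested. Leaving out 1 library gave 9 to 21 for the combination against vehicle, 0 to 2 for 5-azacitidine, 0 to 0 for PD-901, 4 to 15 for the combination against PD-901, 0 to 4 against 5-azacitidine, 0 to 1 for the interaction, 0 to 19 for any difference and 8 to 29 other pathway genes. Among all genes the same fits gave in turn 803 to 2730, 0 to 106, 0 to 1 and 386 to 1563. They gave 0 to 735 for the combination against 5-azacitidine, 0 to 150 for the interaction and 4 to 1674 for any difference.

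Signs for the combination against vehicle turned for Irgm1 (0.026), Igtp (0.25) and Gbp2 (0.52) with the Xist covariate. They also turned for Herc6 (-0.016) and Gbp3 (-1.22) without the 4 libraries lowest in Lyz2, where combination 3 was set against vehicle 3 alone. Leaving out 1 library turned Gbp3 (range -0.12 to 0.51), Igtp (-0.16 to 0.026) and Gbp2 (-0.42 to 0.31). None of these had passed the test. Of the single-gene values under alternatives, 621 kept direction and side of the threshold, 80 lost the call and 24 gained it. Depth limits Ifi44 most, which had 0 counts in 5-azacitidine 1. No paired analysis was possible because the labels give the mice no shared numbers.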
